A study of Homo sapiens with 12 samples.

Results

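Small nuclear RNA (snRNA) genes were followed through 2 maps of nucleolus-associated domains (NADs), the stretches of DNA that stay with nucleoli when these are purified. The members are the RefSeq genes of GRCh38.p14 whose biotype is snRNA and that lie on chromosomes 1 to 22. They number 146 of 56080 genes on these chromosomes, are 60 to 332 bases long and sit on 21 of the 22 autosomes. By symbol they are 4 RNU1, 17 RNVU1, 3 RNU2, 2 RNU4, 5 RNU5 and 5 RNU6 genes, 4 genes of the minor spliceosome, RNU7-1, RN7SK, 28 SNAR genes and 76 entries with a LOC number, whose type the reference table does not name. Counted without the SNAR, RNU7-1, RN7SK and LOC entries, 40 genes carry the symbol of a spliceosomal RNA. The biotype thus also takes in RNAs that have no part in the spliceosome.

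The cells were H9 human embryonic stem cells, an established line, kept naive in RSeT medium or primed in mTeSR medium, with no other treatment. Cells were crosslinked and sonicated, and the pelleted nucleoli gave 3 libraries of nucleolar DNA per state, beside 3 of whole-cell DNA. The authors deposited 1 list of NADs per state, which gives nothing but positions on hg38. On the autosomes the naive list has 58225 regions and the primed list 28558, all on a 10 kb grid. Since each state has 1 list, no value below carries an error across cultures, no test compares the states, and the read depth is unknown. DNA gives no expression, so the labelled cell states could not be checked against marker genes, and all cells share 1 line.

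Spliceosomal snRNAs are the RNA cores of the particles that remove introns. U1 RNA pairs with the 5′ splice site, U2 RNA with the branch point, and U4, U5 and U6 RNAs join as a ready-made triple particle. U11, U12, U4atac and U6atac RNAs do the same work on a rare class of introns. RNA polymerase II makes most of these RNAs, while U6 and U6atac RNAs, like 7SK RNA, are made by RNA polymerase III. Some of the genes are known to gather at Cajal bodies, nuclear bodies that often touch nucleoli, and U6 RNA is modified while it passes through the nucleolus.

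Sequence is shown for 3 members, read from the promoter windows of neighbouring genes in the RefSeq table (GRCh38.p14), which holds no entry for the snRNA genes themselves. RNU7-1 is shown because it is the sole gene of its kind here and lay in NADs of both states. It sits at chr12:6943816-6943878, 144 to 206 bases before the start of C12orf57. The capitals mark the site that binds the Sm-type protein ring of the U7 particle, at position 21 of the gene, and the strand is that of C12orf57.
RNU7-1: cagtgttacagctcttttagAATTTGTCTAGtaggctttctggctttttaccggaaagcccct
SNAR-G1 and SNAR-G2 are shown because they share 1 bin of 10 kb and show how far 2 copies of a family can differ. SNAR-G1 (chr19:49037020-49037145, minus strand, 126 of its 128 bases) lies before the start of CGB1, and SNAR-G2 (chr19:49031669-49031787, plus strand) before the start of CGB2, a pair of chorionic gonadotropin genes. Both are written on the strand of the CGB gene, since the table gives no strand for the SNAR genes. Capitals mark bases that differ from the aligned copy or are missing from it.
SNAR-G1: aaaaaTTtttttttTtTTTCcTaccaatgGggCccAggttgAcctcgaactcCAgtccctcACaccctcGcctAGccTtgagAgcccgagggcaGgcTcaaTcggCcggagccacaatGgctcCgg
SNAR-G2: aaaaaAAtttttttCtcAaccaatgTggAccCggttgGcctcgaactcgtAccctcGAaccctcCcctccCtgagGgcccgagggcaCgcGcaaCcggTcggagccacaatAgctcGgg
The pair is identical at 99 of 127 aligned positions (78.0%). Other copies were not compared, and how the authors treated reads that match several copies is not given in the sources used here.

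Overlap by a single base was enough to place a gene in a NAD. Of the 146 snRNA genes, 78 (53.4%) lay in naive NADs and 109 (74.7%) in primed NADs, against 61.6% and 67.1% of all autosomal genes. Long genes touch a region more easily, so short genes and plain sequence are the closer measure. Of other genes of at most 400 bases, 41.6% lay in naive and 54.6% in primed NADs, and of all 10 kb bins 39.5% and 43.7%. These other short genes split into 27.3% in both lists, 14.2% in naive only, 27.3% in primed only and 31.1% in neither. The snRNA genes were thus above both measures in each list. In NADs of both states were 65 members (44.5%), against 46.5% of all genes and 20.9% of bins. In naive NADs only were 13 (8.90%), against 15.1% of all genes and 18.6% of bins. In primed NADs only were 44 (30.1%), against 20.5% and 22.8%, and in neither list 24 (16.4%), against 17.8% and 37.7%.

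The naive minus primed share was -21.2 percentage points for the members. The primed share was also the higher over all genes (61.6% naive, 67.1% primed), other short genes (41.6%, 54.6%) and bins (39.5%, 43.7%). With each gene widened by 10 kb on both sides, 121 members touched naive and 123 primed NADs, a gap of -1.37 points. Merging regions up to 50 kb apart gave that same gap with 125 and 127 members. Either step raises the share of any set of genes, and neither was run on other genes. Of the 68 members outside naive NADs, 43 lay less than 10 kb from one. Among all uncovered naive bins, 56.0% bordered a covered bin.

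**Figure D1:**
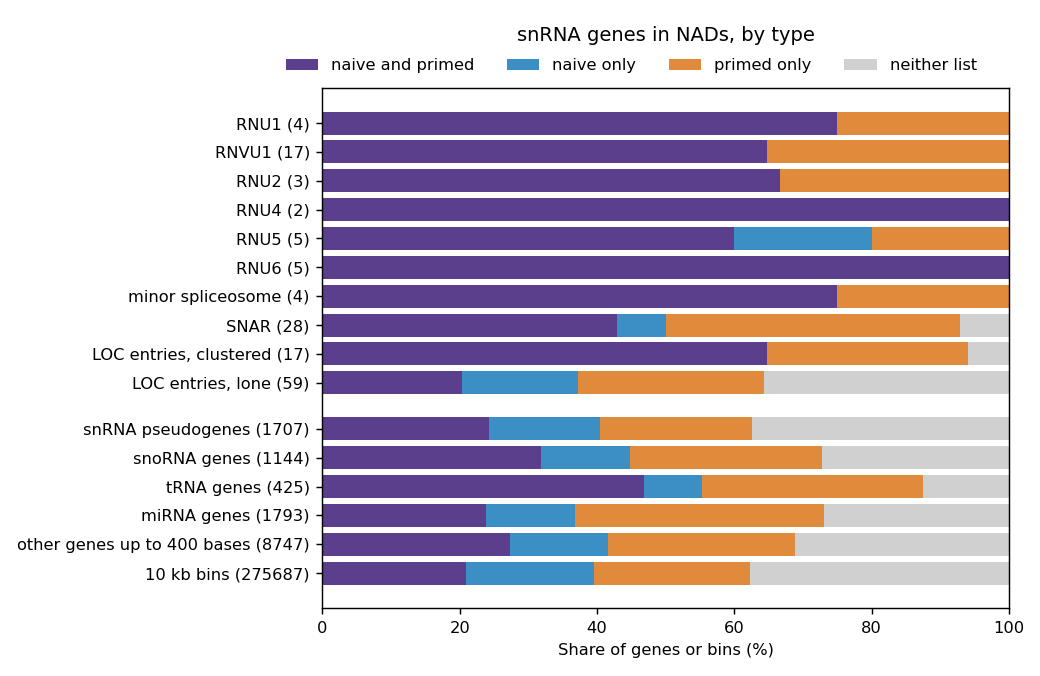
Share of genes or 10 kb bins (%, horizontal axis) in NADs of both states, of naive cells only, of primed cells only and of neither, for each snRNA type and, below the gap, for other small RNA genes and for all bins, with the number of genes or bins in parentheses. The RNU and RNVU bars have no part in neither list, whereas 35.6% of the lone LOC entries and 37.7% of the bins do.

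The named spliceosomal genes had higher shares than the LOC entries. Of the 40, 30 (75%) lay in naive and 39 (97.5%) in primed NADs, 29 of them in both, and none lay outside both lists. The LOC entries were at 33 of 76 (43.4%) in naive and 44 of 76 (57.9%) in primed NADs. The mean share of a spliceosomal gene's own chromosome in NADs was 37.7% in the naive and 48.3% in the primed list. Pseudogenes with RNU or RNVU symbols, scattered copies of the same RNAs, lay in naive NADs in 40.4% and in primed NADs in 46.5% of 1707 cases, close to the share of bins. RNU6 pseudogenes made up 1207 of these, with 39.9% in naive and 47.6% in primed NADs. Without the RNVU1 genes, 19 of 23 lay in naive and 22 of 23 in primed NADs, and without chromosome 1, 13 of 15 and 14 of 15.

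Gene density moved with the primed share, and its part in the counts was not tested beyond the following values. A window of 1 Mb around a spliceosomal gene held a median of 11.5 coding genes, against 5 over all bins. Where the window held 0 to 4 coding genes, all 5 spliceosomal genes were in primed NADs, against 36.1% of 479 pseudogenes and 34.4% of bins. Where it held 5 to 9 coding genes, all 13 spliceosomal genes were in primed NADs, against 42.4% of 576 pseudogenes and 41.8% of bins. Where it held 10 to 19, all 13 were, against 48.3% of 453 pseudogenes and 55.8% of bins. At 20 or more coding genes the spliceosomal share was 8 of 9, against 78.9% of 199 pseudogenes and 79.3% of bins. The primed share of bins thus climbed with gene density, and the spliceosomal share, counted per gene, was above it in each class. Genes of a class are not all independent. Most of the 13 genes at 5 to 9 coding genes were RNVU1 genes, several of which share a primed region. Of the 5 genes at 0 to 4, RNU6-7 and RNU6-8 share 1 bin, and RNVU1-17 and RNVU1-18 share 1 primed region. In naive NADs the spliceosomal counts in the 4 classes, from few to many coding genes, were 4 of 5, 9 of 13, 10 of 13 and 7 of 9, against 42.4%, 36.1%, 36.5% and 41.2% of bins.

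The RNU1 genes encode the U1 RNA that most introns meet first. They lie close together on the short arm of chromosome 1, with RNU1-1 at 16514122 to 16514285, RNU1-3 at 16666785, RNU1-4 at 16740516 and RNU1-2 at 16895980. RNU1-1, RNU1-3 and RNU1-2 had 100% of the gene body in naive and 100% in primed NADs. RNU1-4 had 0% in naive and 100% in primed NADs, and its nearest naive region was 19.3 kb away. The treatment of reads that match several copies is not given, so calls at single RNU1 genes are uncertain. The naive regions over the 3 covered genes were 40, 50 and 20 kb long, and the primed regions over RNU1-1, RNU1-3 and RNU1-2 were 70, 20 and 90 kb. Within 1 Mb around the 4 genes, naive NADs covered 32% to 36% and primed NADs 70.6% to 74%, against 33.2% and 39.4% of chromosome 1. At this width the surroundings were near the chromosome's level in the naive list and above it in the primed list. In the 100 kb windows of RNU1-1, RNU1-3, RNU1-4 and RNU1-2, naive NADs covered 55.8%, 50%, 19.4% and 46.1%, and primed NADs 75.8%, 70%, 79.4% and 83.9%. Close to the genes, 3 of 4 were thus above the chromosome's level in the naive list too. Of 99 RNU1 pseudogenes, 42.4% lay in naive and 47.5% in primed NADs.

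The RNVU1 genes, variants of U1, lie between 120850819 and 149637013 on chromosome 1, on either side of the centromere, in a stretch known for duplicated sequence. All 17 were in primed NADs and 11 in naive NADs. The 6 without a naive call were RNVU1-4, RNVU1-17, RNVU1-28, RNVU1-8, RNVU1-1 and RNVU1-30. RNVU1-28 missed the nearest naive region by 0.665 kb and RNVU1-4, the farthest, by 12.6 kb. The primed regions over these genes ran from 110 to 1780 kb with a median of 480 kb, and the naive regions over the covered ones from 10 to 80 kb with a median of 30 kb. In the 1 Mb window naive NADs covered 44.0% to 65.0% and primed NADs 84.0% to 100%, so every RNVU1 window was above the level of chromosome 1 in both lists. Reads from such duplicated sequence cannot always be placed, so calls at single RNVU1 genes are uncertain.

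The U2 genes were each in primed NADs. RNU2-1 (chromosome 17, 43233790 to 43233977) and RNU2-63P, a copy on chromosome 2 that the table lists as an snRNA gene despite its pseudogene symbol, were covered in full in both lists. RNU2-2 on chromosome 11 (62841619 to 62841809) was in primed NADs only. It lay inside a primed region of 1160 kb, and naive NADs covered 10.0% of the 100 kb around it. Its nearest naive region was 8.19 kb away. Of 65 RNU2 pseudogenes, 46.2% lay in naive and 46.2% in primed NADs.

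RNU4-2 and RNU4-1, the U4 genes, lie 1.19 kb apart on chromosome 12 (120291759 to 120293237) in the same bin, and both lists covered both. The naive region over them was 30 kb and the primed region 20 kb long, a pair in which the naive region was the longer. Their 100 kb windows were near even, with 46.8% to 48.2% in naive and 51.8% to 53.2% in primed NADs. RNU4 pseudogenes were at 41.2% in naive and 38.8% in primed NADs.

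Among U5 genes, RNU5E-1, RNU5D-1 and RNU5B-1 were in both lists. RNU5F-1 was in primed NADs only, 8.10 kb from a naive region. RNU5A-1 was in naive NADs only, the sole spliceosomal gene outside primed NADs, and it missed a primed region by 3.83 kb. Its neighbour RNU5B-1, 8.51 kb away on chromosome 15, was covered in both states, so the contrast between them is 1 bin wide. RNU5 pseudogenes were at 46.4% in either list.

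All 5 U6 genes lay in NADs of both states. They fill 4 bins, and the mean share of a U6 gene's own chromosome was 51.6% in the naive and 82.5% in the primed list. RNU6-7 and RNU6-8, 1.01 kb apart on chromosome 14 (32202045 to 32203269), sat in a naive region of 60 kb and a primed region of 2960 kb. RNU6-9 and RNU6-2 on the short arm of chromosome 19 shared a primed region of 420 kb and lay in naive regions of 50 and 20 kb. RNU6-1 on chromosome 15 (67839939 to 67840045) had 100% of its body in a naive region and 57.9% in a primed one, whose limit fell inside the gene. Its 100 kb window was 80% in naive and 70% in primed NADs, which made it the exception among 40 spliceosomal genes. The other 39 had more of this window in primed NADs, a count that was not made over all genes.

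Of the genes of the minor spliceosome, RNU11 (chromosome 1), RNU4ATAC (chromosome 2) and RNU6ATAC (chromosome 9) were in both lists. RNU12 was in primed NADs only, 4.61 kb from a naive region, on chromosome 22, which was at 91.4% in primed and 53.8% in naive NADs. RNU4ATAC had the least primed surroundings of the 40, with 40.1% of its 1 Mb window in primed and 30.9% in naive NADs. Chromosome 2 as a whole was at 28.5% and 33.0%, so this window was above its chromosome's primed level. The naive region over RNU4ATAC was a single bin of 10 kb. Pseudogenes of these 4 RNAs were at 45.2% in naive and 41.9% in primed NADs. RNU6ATAC lay in a naive region of 20 kb and a primed region of 240 kb. RNU7-1, whose RNA guides the cutting of histone messenger RNAs, lay in a naive region of 80 kb and a primed region of 50 kb, while 37.9% of RNU7 pseudogenes lay in naive and 43.5% in primed NADs. RN7SK on chromosome 6 (52995620 to 52995951) makes the RNA that holds back the elongation factor P-TEFb. It was in a primed region of 50 kb and missed the nearest naive region by 5.62 kb.

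**Figure D2:**
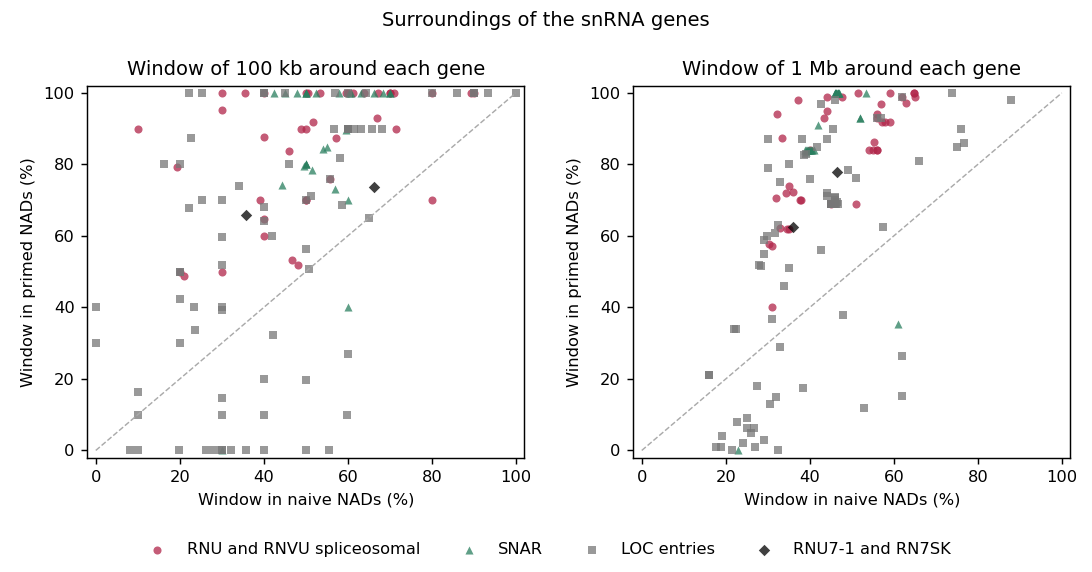
Share of the 100 kb (left) and 1 Mb (right) window around each of the 146 genes in naive NADs (%, horizontal axis) and in primed NADs (%, vertical axis), with the dashed line at equal shares. In the 1 Mb windows all 40 spliceosomal genes lie above the line, while LOC entries spread over the whole range of primed shares. Windows around other genes were not counted, and the primed list covers more of all bins (43.7% against 39.5%).

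SNAR genes make short RNAs of RNA polymerase III that bind the protein NF90. Of 28, 14 lay in naive and 24 in primed NADs. On chromosome 19, where 26 of them sit, 13 were in naive NADs (50%) and 23 in primed NADs (88.5%), against 51.6% and 97.3% of the chromosome, so the SNAR counts were at or below the level of their chromosome. SNAR-H on chromosome 2 was in both lists, in regions of 10 kb (naive) and 20 kb (primed). SNAR-I on chromosome 3 was in neither, and its nearest primed region was 1070 kb away. SNAR-E on chromosome 19 missed both lists by the same 0.584 kb.

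Copies that lie together were set beside copies that lie alone. Genes linked by gaps of at most 100 kb were taken as a cluster. There were 15 clusters with 61 genes, and 85 genes stood alone. Clustered genes lay in naive NADs in 38 of 61 cases (62.3%) and lone genes in 40 of 85 (47.1%). In primed NADs the counts were 57 of 61 (93.4%) and 52 of 85 (61.2%). Genes of a cluster share bins and are not independent: the 61 clustered genes fill 43 bins. Counted once each, as covered if most of its genes were, 7 of 15 clusters (46.7%) were in naive and 13 (86.7%) in primed NADs. By this rule a pair with 1 of 2 genes covered counts as not covered. Several pairs were of this kind in the naive list, such as RNU1-3 with RNU1-4, so the naive share of clusters depends on the rule. The clustered genes also sit on chromosomes richer in NADs: the mean share of a gene's own chromosome was 44.5% in naive and 71.8% in primed NADs for clustered genes, against 38.9% and 46.6% for lone ones. The part of the chromosome in the gap was not tested.

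By symbol, the contrast in primed NADs was among the LOC entries. Clustered LOC entries, 17 in all and 13 of them beside RNU2-1, were at 11 in naive and 16 in primed NADs, whereas the 59 lone ones were at 22 (37.3%) and 28 (47.5%). Their chromosomes were at 63.7% in primed NADs for the clustered and 45.2% for the lone LOC entries. Genes with approved symbols showed no such gap in primed NADs, with 41 of 44 clustered (93.2%) and 24 of 26 lone (92.3%), on chromosomes at 75% and 49.7%. In naive NADs they were at 27 of 44 clustered (61.4%) and 18 of 26 lone (69.2%), a difference of the other sign. The spliceosomal genes alone gave 14 of 20 clustered and 16 of 20 lone in naive NADs, and 19 of 20 and 20 of 20 in primed NADs.

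The RNU2-1 cluster on chromosome 17 spans 134 kb (43233790 to 43368087), with 13 LOC entries of 189 to 192 bases beside RNU2-1, and CCDC200 is the nearest coding gene. All 14 were in primed NADs, in the regions from 43220001 to 43310000 and from 43320001 to 43380000. The naive list broke the same span into 4 regions, covering 70.2% of it against 92.6% in primed NADs, and 3 entries fell in its gaps. How reads that match several copies were treated is not given, so calls at single entries and these gaps are uncertain. Neighbours were a median of 5.94 kb apart, and the 14 genes fill 9 bins.

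The SNAR clusters on chromosome 19 differed from each other. Calls at single copies are uncertain here too, since the treatment of reads that match several copies is not given. The cluster from SNAR-A12 to SNAR-C1 (47907678 to 47955801, nearest coding gene BSPH1) had 6 of 10 genes in naive and 8 of 10 in primed NADs. SNAR-A2 and SNAR-C4, in the middle, were in naive NADs only, and SNAR-C5, SNAR-A1, SNAR-C3 and SNAR-C1 in primed NADs only. Neighbours there are about 5.25 kb apart, so the swap rests on few bins. The cluster from SNAR-A4 to SNAR-D (50092489 to 50140320, nearest coding gene IZUMO2) lay wholly in 1 primed region of 9298 kb that reaches the end of the chromosome. The naive list covered 5 of its 12 genes, SNAR-A10 to SNAR-D, and left a gap over the other 7. SNAR-G2 and SNAR-G1, shown above, lay in a naive region of 20 kb and a primed region of 230 kb.

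**Figure D3:**
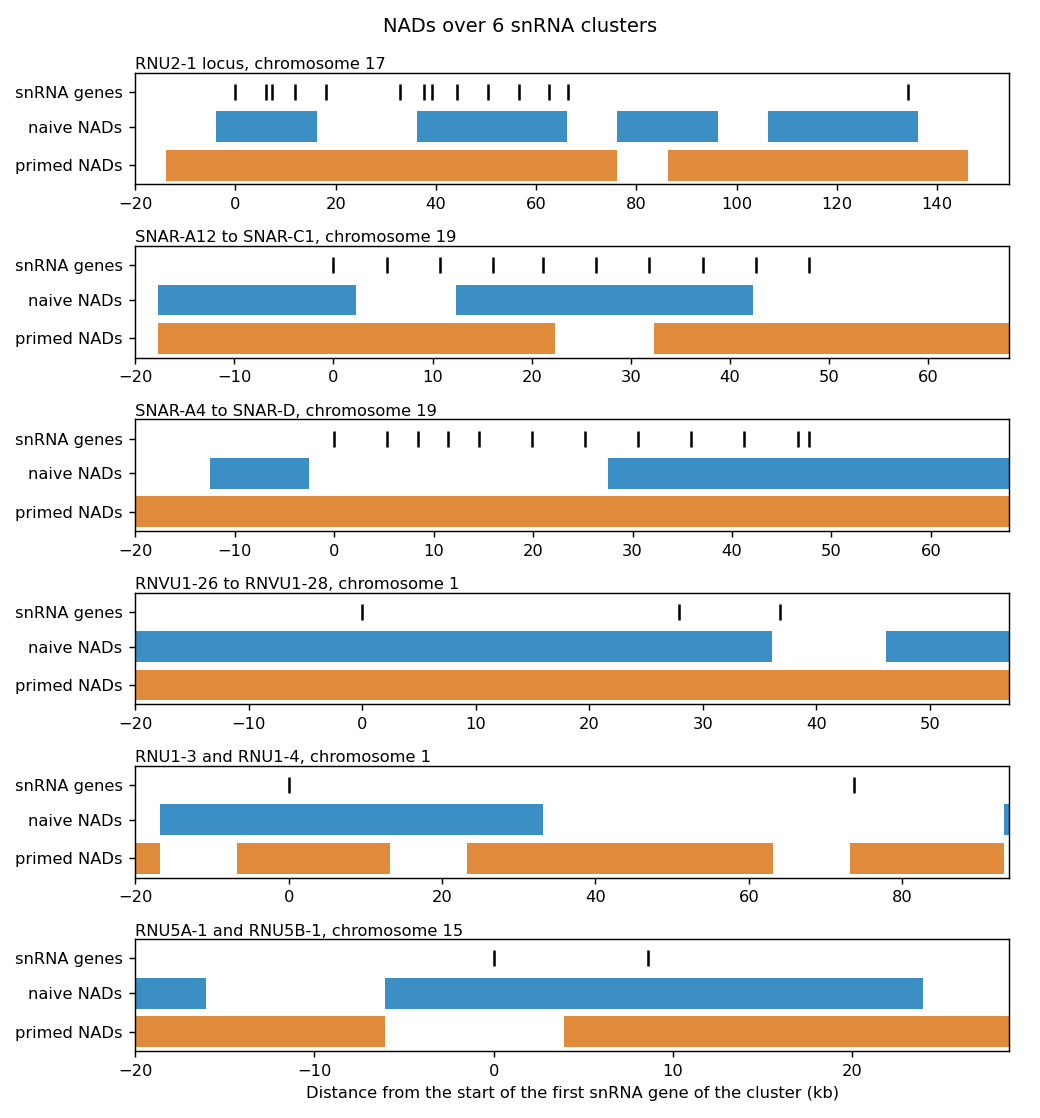
Naive NADs (blue), primed NADs (orange) and snRNA gene starts (ticks) over 6 clusters, with distance in kb from the first gene on the horizontal axis. Regions are cut at the panel edges. The RNU2-1 locus holds 14 genes in primed NADs and 11 in naive NADs, and the SNAR-A4 locus 12 and 5.

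The 76 LOC entries fell into length classes. The 26 of 60 to 70 bases were in naive NADs in 10 cases and in primed NADs in 10. The 25 of 100 to 120 bases were at 11 and 12, the 8 of 140 to 170 bases at 1 and 8, and the 17 of 180 to 200 bases at 11 and 14. The classes up to 120 bases were thus near the share of bins in both lists. Most of the 17 entries of 180 to 200 bases lie in the RNU2-1 cluster, so the 17 form only 5 loci and are not independent. The 3 of them in neither list lie outside that cluster. The LOC entry farthest from a primed region was LOC124906342 on chromosome 3, at 826 kb, in a naive region of 10 kb.

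The regions that held snRNA genes differed in length between the states. Over the spliceosomal genes the naive regions ran from 10 to 80 kb with a median of 30 kb, and the primed regions from 20 to 2960 kb with a median of 280 kb, counted per gene. The 17 RNVU1 genes, several of which share a primed region, carry that primed median: without them it was 80 kb, against 30 kb in the naive list. Among all members, 18 of 78 naive calls rested on a single bin, against 2 of 109 primed calls. In regions of at least 1 Mb lay 28 primed calls, 13 of them SNAR genes in the region of 9298 kb on chromosome 19. The naive list has no region of at least 1 Mb, whereas the primed list has 100 on the autosomes. Over all autosomal regions the mean length was 18.7 kb in the naive and 42.2 kb in the primed list, with a median of 10 kb in each. Lengths of regions over other genes were not counted. In the 1 Mb windows the primed share was above the naive share around 122 of the 146 members. The same count was not made over all genes or bins, and the primed list covers more of all bins (43.7% against 39.5%).

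**Figure D4:**
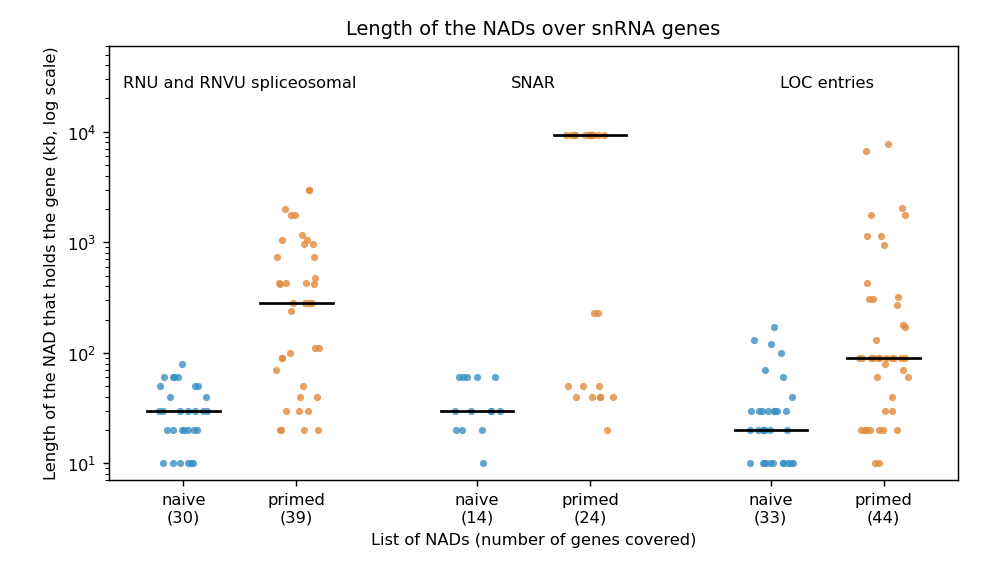
Length of the NAD over each covered gene (kb, log scale) in the naive and primed lists, for spliceosomal genes, SNAR genes and LOC entries, with the number of covered genes in parentheses and black lines at the medians. The median for spliceosomal genes is 30 kb in the naive and 280 kb in the primed list (30 and 80 kb without the RNVU1 genes, with shared regions counted once per gene), and most SNAR genes in primed NADs share the region of 9298 kb.

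Set beside other small RNA genes, the snRNA genes as a whole were close to transfer RNA genes, which lay in naive NADs in 55.3% and in primed NADs in 79.1% of 425 cases. They were above small nucleolar RNA genes, at 44.8% and 59.9% of 1144. The named spliceosomal genes, at 75% and 97.5%, had higher shares than either. With 1 list per state, the difference between gene groups was not tested.

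The genes of the snRNAs' protein partners were at the level of coding genes. Of 104 autosomal genes in 7 lists, 79 (76.0%) lay in naive and 83 (79.8%) in primed NADs, against 76.7% and 81.3% of all coding genes. By list, naive and primed counts were 12 and 10 of 13 snRNA transcription factors, 13 and 12 of 15 Integrator subunits, which cut the ends of snRNA transcripts, and 13 and 13 of 17 Sm and LSm ring proteins. They were 14 and 20 of 23 proteins specific to the major particles, 7 and 8 of 10 specific to the minor ones, 14 and 13 of 19 assembly and Cajal body factors, and 6 and 7 of 7 proteins of the 7SK particle. Over all 7 lists the median share of the gene body was 38.1% in naive and 60.5% in primed NADs, against 35.1% and 72.5% over all coding genes. The lists differed among themselves, with medians of 19.4% in naive and 80.8% in primed NADs for the major-particle list and 40.7% and 29.1% for the transcription factors. The other 5 lists had naive medians of 35.5% to 46.9% and primed medians of 51.6% to 99.6%.

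Single genes of these lists went either way. SNAPC5, a subunit of the complex that binds snRNA promoters, had 96.8% of its body in naive and 3.16% in primed NADs, and SNAPC3 39.0% and 0%. LSM10, a protein of the U7 ring, and STRAP, a partner of the SMN complex, had 100% in naive and 0% in primed NADs. PRPF4 of the tri-snRNP had 83.2% and 0%, and SF3B1 of the U2 particle 55.4% and 0%. The reverse held for PRPF8, PRPF31, SF3B2, the U1 protein gene SNRPA and the Sm protein gene SNRPB, with 0% in naive and 100% in primed NADs. PRPF31 and SNRPA lie on chromosome 19 and SNRPB on chromosome 20, which were at 97.3% and 94.5% in primed NADs. PRPF8 lies on chromosome 17, at 72.7%, and SF3B2 on chromosome 11, at 42.6%. The part of the chromosome in these calls was not tested. SMN1 had 63.7% in naive and 0% in primed NADs and its near-identical copy SMN2 1.17% and 97.5%, a contrast that is uncertain because reads of the copies are hard to tell apart. CCNT1, a cyclin of P-TEFb, had 5.46% in naive and 100% in primed NADs.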

How the data were processed

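NADs were profiled in naive and primed H9 cells, 12 libraries in 4 groups of 3. The authors deposited 1 list of regions per state, whose unit is a position (chromosome, start and end, other than a score or count). BWA, SAMtools 1.10 and SICER on hg38 are named per the submitters' processing notes; their roles, settings and how 3 replicates became 1 list are not stated there. Depth is unknown, so no interval is given.

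Genes came from a RefSeq table (GRCh38.p14, the assembly of hg38). Of its 156 snRNA genes, 7 with scaffold coordinates and 3 on chromosome X were left out. Covered bases were counted with numpy 2.4.6 and pandas 2.3.3 under Python 3.11.15, with code tested on simulated data, sequences were aligned with Biopython 1.88, and figures drawn with matplotlib 3.10.9. Bins of empty stretches of at least 500 kb (no region, no gene) were left out. No test was made, because each state has 1 list. Promoter motifs of snRNA genes, planned, were not analysed here for want of those promoters. Members and lists were chosen with earlier results of these data known. Any member with an approved symbol could be named; LOC entries were counted, and named as ends of a range; of the protein lists, up to 4 genes per list with the largest difference in each direction could be named. Alternatives were gene flanks, region length, merged gaps, cluster distance and subsets of members.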

Additional observations from a re-analysis of the deposited data

How the results depend on the processing

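The primed count of members stayed above the naive count in each of the 8 alternatives run on it; among lone genes this failed in 1, the merging of regions. With genes widened by 10 kb, 121 members were in naive NADs, 107 in both, 16 in primed only and 9 in neither, and the naive minus primed share was -1.37 points. With regions up to 50 kb apart merged, the values were 125, 111, 16 and 5, again with -1.37 points, and clustered genes were at 95.1% in naive and 100% in primed NADs, lone genes at 78.8% and 77.6%. With regions of at least 20 kb only, 7 members were in naive NADs only, the difference was -32.2 points and lone genes were at 27.1% in naive NADs. With approved symbols only, 70 genes remained, of which 45 were in naive and 65 in primed NADs, 42 in both, 3 in naive only, 23 in primed only and 2 in neither, and lone genes, with clusters drawn anew, were at 70.4% and 92.6%. Without chromosome 1, 43 of 108 members (39.8%) were in both, against 44.5% in the main count. With each cluster as 1 locus, 47 of 100 loci were in naive and 65 in primed NADs. Of the 100 loci, 36 were in both and 29 in primed only, with a pair covered at 1 of 2 genes taken as not covered. Leaving out SNAR genes, an alternative chosen after seeing the data, changed no count over all members by over 1.5 times. Clustered genes fell from 38 to 25 in naive and from 57 to 35 in primed NADs, with shares of 67.6% and 94.6%. No paired analysis was possible because each state has 1 list in which replicates are not told apart. No replicate could be left out for the same reason.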

Other observations

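The 3 snRNA entries on chromosome X, which enter no count above, were LOC124900488 in primed NADs only and LOC124905264 and LOC124905265 in NADs of both states.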
